A study of Homo sapiens with 6 samples.

Results

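PEG10, SGCE, PNMA1, PNMA2, PNMA3, LDOC1 and ARC were followed in SH-SY5Y cells, a human neuroblastoma line, after the RNA-binding protein gene TARDBP had been lowered with a short hairpin RNA. Of these genes, 6 descend from the gag gene of retrotransposons that inserted into ancestral genomes and were kept as ordinary genes. SGCE is not of that origin and was included as the imprinted neighbour of PEG10. The genes were taken by symbol, 7 of 27961 genes in the count tables, and all 7 had enough counts to be tested among 17163 genes and repeat subfamilies. They were chosen by family and position after the fall of PEG10 CPM with the TARDBP hairpin was known from these same libraries. Their values in that comparison are therefore a description. Lists of other genes and repeats below were also chosen with earlier results known, so their p-values with the TARDBP hairpin are no independent test.

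The libraries came from cells infected with lentivirus carrying hairpin TRCN0000016038 against TARDBP (the TARDBP hairpin), control hairpin SHC016 (control hairpin 2) or control hairpin SHC007 (control hairpin 1), in 2 libraries for each. All 6 received 8 µg/mL polybrene at infection, and 2 µg/mL puromycin was applied for 3 days, beginning 48 hours after infection. A single hairpin sequence stands for the loss of TARDBP, and no label tells if libraries sharing a hairpin were grown separately. P-values then measure only how far these libraries spread, which may be technical.

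Library totals ran from 18605745 to 21698339 counts. TARDBP had 18.9 and 24.0 CPM (counts scaled to library size) with its hairpin, 92.7 and 81.5 CPM with control hairpin 2, and 80.9 and 72.4 CPM with control hairpin 1. The sympathetic transcription factor genes PHOX2A, HAND2, GATA2, GATA3 and ISL1 were at 71.1 CPM or above in every library, whereas DBH, the dopamine beta-hydroxylase gene, ranged from 14.7 to 430 CPM and TH, the tyrosine hydroxylase gene, had 6 counts over all libraries. Of 7 tested mesenchymal neuroblastoma markers, 2 rose and 1 fell against control hairpin 2, where 24.0% of everything tested rose and 26.2% fell. Against control hairpin 1, 5 rose and 0 fell, where 21.1% of everything tested rose and 21.8% fell. With control hairpin 2, 6 were higher than with control hairpin 1, where 22.8% of everything tested was. Of 12 marker genes of other cell types, PTPRC, PECAM1, KRT5, GFAP, AQP4 and HBB had at most 9 counts each over all libraries, whereas VWF had 62, MBP 177, EPCAM 266, CD68 1250 and ACTA2 14650. EPCAM, an epithelial gene, had 3.36 and 6.86 CPM with the TARDBP hairpin and at most 1.17 CPM in the control libraries, and CD68, a macrophage gene, ran from 5.82 to 18.8 CPM over all libraries. Summed over the 12 genes the level was 128 and 112 CPM with the TARDBP hairpin, 185 and 233 CPM with control hairpin 2, and 67.5 and 99.99 CPM with control hairpin 1, most of it from the actin gene ACTA2. Their part in the values below was not tested. Between control hairpins 2 and 1, 43.2% of everything tested passed an adjusted p of 0.05, so the 7 genes are given against each control.

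In a retrovirus, gag encodes the protein that assembles into the capsid around the viral RNA. The domesticated copies have lost the ability to move, but several of their proteins still bind RNA or form capsid-like shells. PEG10 is expressed from the paternal allele, is required for the placenta in mice, and like its viral ancestor makes a longer protein when ribosomes slip back by a base near the end of its first reading frame. PNMA1, PNMA2 and PNMA3 encode neuronal proteins first found as targets of antibodies in patients with paraneoplastic neurological disease. ARC encodes a synaptic protein induced by neuronal activity whose shells carry RNA between cells, and LDOC1 encodes a small gag-like protein.

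The slippage signal is the sequence that sets PEG10 and PNMA3 apart among these genes. The heptamer GGGAAAC was searched on the sense strand of the coding sequences of the GENCODE models on GRCh38. It occurred in PEG10 and PNMA3, and in none of SGCE, PNMA1, PNMA2, LDOC1 and ARC. Both stretches are shown with 30 bases on either side, heptamer in capitals, at chr7:94664480-94664546 on the plus strand for PEG10 and at chrX:153058363-153058429 on the plus strand for PNMA3.
PEG10: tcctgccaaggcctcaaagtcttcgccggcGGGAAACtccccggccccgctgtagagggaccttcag
PNMA3: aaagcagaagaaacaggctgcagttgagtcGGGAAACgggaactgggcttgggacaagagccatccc
The heptamer began at coding base 1182 of 1203 in the first frame of PEG10 and at base 1338 of 1389 in PNMA3, at codon position 3 in both. Among 19567 human coding genes, 11.4% held the heptamer anywhere and 4.18% with its first base at codon position 3. A match describes these letters and is no evidence of slippage, and the counts below do not separate the products of the frames.

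PEG10 was lowest with the TARDBP hairpin and highest with control hairpin 2. It was counted 261 and 273 times under the TARDBP hairpin, 13115 and 16008 times under control hairpin 2, and 3037 and 3546 times under control hairpin 1. In CPM it had 13.5 and 14.2 under the TARDBP hairpin (13.8 ± 0.479, SD, n = 2), 690 and 754 under control hairpin 2 (722 ± 45.1), and 155 and 174 under control hairpin 1 (164 ± 13.3). No library of one hairpin overlapped those of another, and the libraries of a hairpin lay close together. The log2 fold change (log2FC) with the TARDBP hairpin was -5.71 (standard error, SE, 0.120) against control hairpin 2 and -3.57 (SE 0.111) against control hairpin 1. PEG10 thus stood 52.2-fold lower than with control hairpin 2 and 11.9-fold lower than with control hairpin 1. The log2FC against the mean of both controls was -4.64 (SE 0.111), the 50th of 17163 by size in either direction.

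The controls also differed from each other in PEG10. It was 4.40-fold higher with control hairpin 2 than with control hairpin 1 (log2FC 2.14, SE 0.0996, adjusted p = 1.64e-05, edgeR quasi-likelihood test). By size this was the 492nd of 17163 changes between the controls, and it was a difference between hairpins neither of which was made against TARDBP. The size of the deficit of PEG10 with the TARDBP hairpin therefore depended on which control it was set against.

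**Figure D1:**
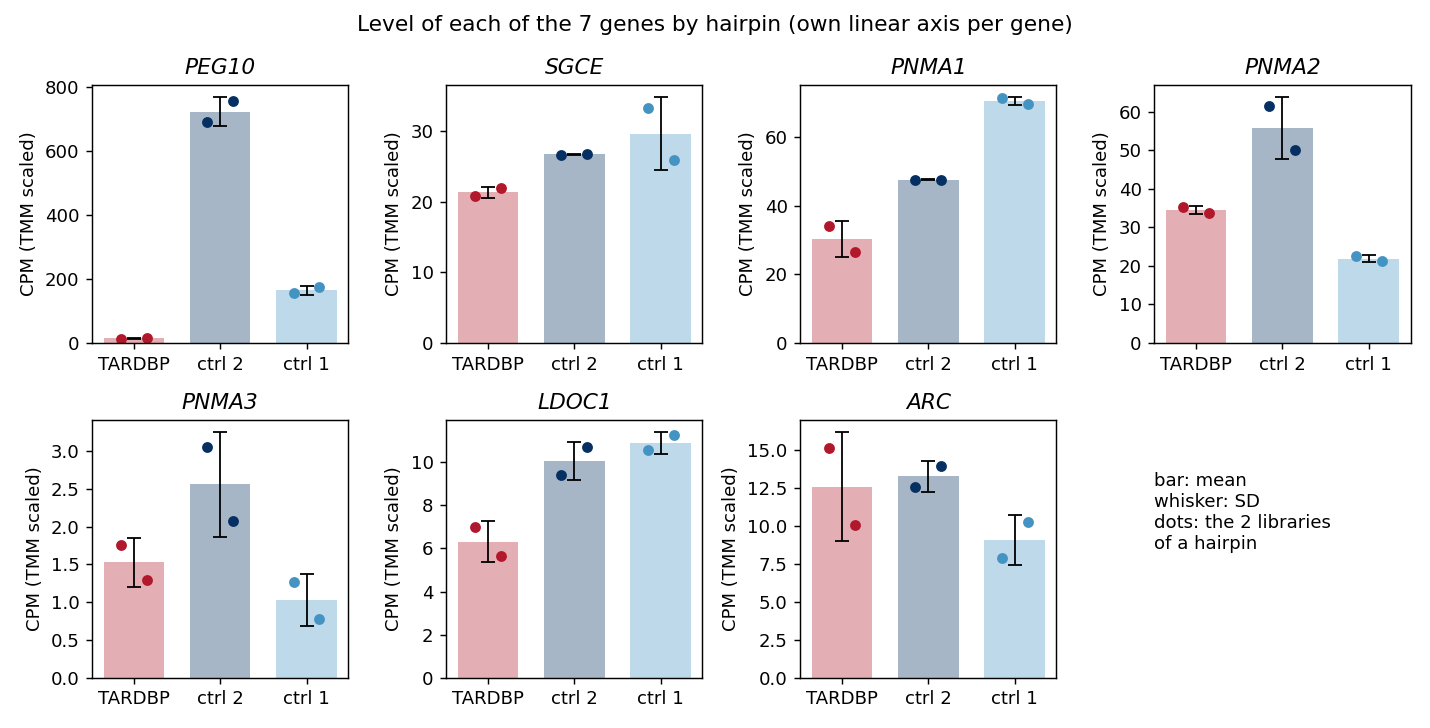
Level of each gene in CPM (TMM scaled, linear axis of its own for each gene) under the TARDBP hairpin, then control hairpin 2, then control hairpin 1, where bars are means, whiskers SD and dots the 2 libraries. For PEG10, SGCE, PNMA1 and LDOC1 both TARDBP hairpin libraries lie below all 4 control libraries, and for PNMA2, PNMA3 and ARC they do not.

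SGCE encodes epsilon-sarcoglycan, a membrane protein whose mutation causes myoclonus-dystonia, and it starts next to PEG10 and is read in the opposite direction. It had 20.8 and 21.9 CPM with the TARDBP hairpin (21.4 ± 0.794), 26.7 and 26.8 CPM with control hairpin 2 (26.7 ± 0.0819), and 33.3 and 26.0 CPM with control hairpin 1 (29.6 ± 5.19). Both TARDBP hairpin libraries lay below all 4 control libraries, by a narrow margin. The log2FC was -0.32 (SE 0.136) against control hairpin 2 and -0.47 (SE 0.136) against control hairpin 1. Control hairpin 2 and control hairpin 1 were not separated for SGCE (log2FC -0.15, 95% confidence interval -0.45 to 0.16, adjusted p = 0.405, edgeR).

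PEG10 and its imprinted partner therefore differed in how far they varied across hairpins. For each SGCE count there were 0.649 and 0.647 PEG10 counts under the TARDBP hairpin, 25.9 and 28.1 under control hairpin 2, and 4.65 and 6.69 under control hairpin 1. The ratio is within a library and does not depend on scaling, but it is not corrected for gene length. The assignment of reads near the shared start of both genes is unknown here, so reads of one there cannot be told apart from reads of the other.

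PNMA1 was lowest with the TARDBP hairpin. It had 34.1 and 26.6 CPM there (30.3 ± 5.30), 47.5 and 47.6 CPM with control hairpin 2 (47.6 ± 0.102), and 71.3 and 69.6 CPM with control hairpin 1 (70.4 ± 1.19). The 3 hairpins did not overlap, and the TARDBP hairpin libraries were the most spread. The log2FC was -0.65 (SE 0.124) against control hairpin 2 and -1.21 (SE 0.124) against control hairpin 1. PNMA1 was also lower with control hairpin 2 than with control hairpin 1 (log2FC -0.57, SE 0.121, adjusted p = 0.00629, edgeR), the opposite order to that of PEG10.

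PNMA2, whose protein also forms capsid-like shells, took another course. It had 35.3 and 33.8 CPM with the TARDBP hairpin (34.5 ± 1.04), 61.5 and 50.2 CPM with control hairpin 2 (55.8 ± 8.00), and 22.5 and 21.2 CPM with control hairpin 1 (21.8 ± 0.904). The TARDBP hairpin libraries fell between the controls, so the sign depended on the control. The log2FC was -0.69 (SE 0.120) against control hairpin 2 and 0.66 (SE 0.123) against control hairpin 1. Control hairpin 2 exceeded control hairpin 1 by 2.56-fold in mean CPM (log2FC 1.35, SE 0.123, adjusted p = 1.25e-04, edgeR), and against the mean of both controls the log2FC was -0.02.

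PNMA3 was counted at a low level. It was counted 34 and 25 times under the TARDBP hairpin (1.76 and 1.30 CPM), 58 and 44 times under control hairpin 2 (3.05 and 2.07 CPM), and 25 and 16 times under control hairpin 1 (1.27 and 0.783 CPM). The order of the means was that of PNMA2, and the TARDBP hairpin libraries lay between the controls without a gap of clear size on either side. The log2FC was -0.74 (SE 0.327) against control hairpin 2 and 0.57 (SE 0.370) against control hairpin 1, and neither interval excluded 0. PNMA3 was higher with control hairpin 2 than with control hairpin 1 (log2FC 1.31, SE 0.345, adjusted p = 0.0159, edgeR). That call was lost without replicate 1 of control hairpin 2 (adjusted p = 0.0982) or without replicate 2 of control hairpin 1 (adjusted p = 0.0949).

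LDOC1, a regulator of placental endocrine cells in mice, was lower with the TARDBP hairpin than with either control. It had 6.98 and 5.66 CPM with the TARDBP hairpin, 9.42 and 10.7 CPM with control hairpin 2, and 10.6 and 11.3 CPM with control hairpin 1. The TARDBP hairpin libraries lay below all 4 control libraries, while those of the controls overlapped. The log2FC was -0.67 (SE 0.164) against control hairpin 2 and -0.79 (SE 0.163) against control hairpin 1. Between control hairpin 2 and control hairpin 1 it was -0.12 (95% confidence interval -0.47 to 0.24, adjusted p = 0.578, edgeR).

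ARC had 15.1 and 10.0 CPM with the TARDBP hairpin, 12.5 and 13.9 CPM with control hairpin 2, and 7.90 and 10.2 CPM with control hairpin 1. The range of the TARDBP hairpin libraries overlapped those of both controls, with a coefficient of variation of 28.6%. The log2FC was -0.08 (SE 0.211) against control hairpin 2 and 0.47 (SE 0.217) against control hairpin 1. Control hairpin 2 against control hairpin 1 gave 0.55 (95% confidence interval 0.05 to 1.04, adjusted p = 0.071, edgeR).

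Against the mean of both controls, 4 of the 7 genes were past adjusted p 0.05, all lower, where 24.3% of everything tested was called lower, 23.9% higher and 48.2% in either direction. The 4 were PEG10, SGCE, PNMA1 and LDOC1, the same 4 whose TARDBP hairpin libraries lay below all control libraries. Of everything tested, 22.8% lay below and 23.3% above all 4 control libraries in that way. With control hairpin 2 as the control, PEG10, PNMA1, PNMA2 and LDOC1 were past it, all lower, against 26.2% of everything tested called lower and 50.2% in either direction. With control hairpin 1, PEG10, SGCE, PNMA1 and LDOC1 were lower and PNMA2 was higher, against 21.8% of everything tested called lower, 21.1% higher and 42.9% in either direction. These comparisons share the TARDBP hairpin libraries, and nothing is read from the counts, since the genes were chosen with the change in view. Between control hairpin 2 and control hairpin 1, PEG10, PNMA2 and PNMA3 were higher and PNMA1 was lower, 4 of 7 where 43.2% of everything tested was called (22.8% higher and 20.4% lower).

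SGCE was the call most sensitive to single libraries. Against the mean of both controls its adjusted p rose above 0.05 when either TARDBP hairpin library was left out, and against control hairpin 1 also without replicate 1 of that control, where the log2FC was -0.29. For LDOC1 the call against control hairpin 2 was lost without replicate 2 of the TARDBP hairpin or replicate 2 of control hairpin 2. PEG10, PNMA1 and PNMA2 kept their pairwise calls whichever library was left out.

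**Figure D2:**
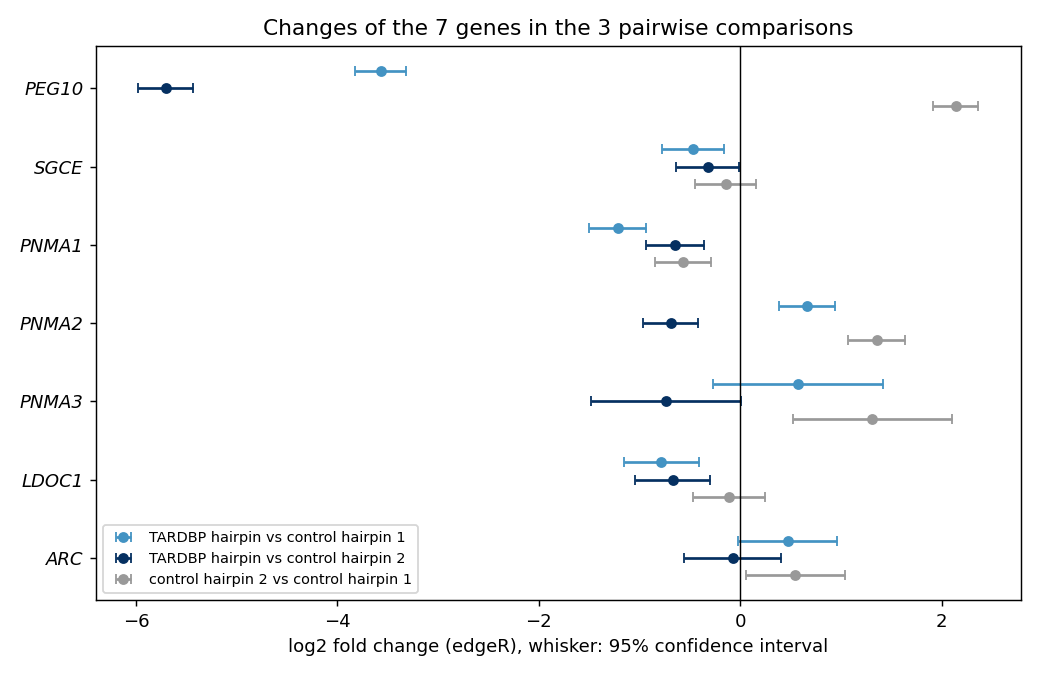
log2FC from edgeR for each of the 7 genes in the 3 pairwise comparisons, with 95% confidence intervals as whiskers and a line at 0. PEG10 stands apart in size, at -5.71 against control hairpin 2 and -3.57 against control hairpin 1, and PNMA2 changes sign with the control (-0.69 and 0.66).

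Of 21 other genes in a list of gag-derived relatives, 14 had enough counts to be tested. No count was found in any library for 4 (RTL3, PNMA5, PNMA6E and PNMA6F). The list also holds ASPRV1, which encodes a retroviral-like protease and not a gag-like protein. Against the mean of both controls 7 of the 14 fell and 1 rose, where 24.3% of everything tested fell and 23.9% rose, with a median log2FC of -0.53 beside 0.04 over everything tested. RTL1, an imprinted retrotransposon-like gene expressed from the paternal allele, fell furthest. It had 7.50 and 5.61 CPM with the TARDBP hairpin, 67.1 and 94.9 CPM with control hairpin 2, and 99.4 and 122 CPM with control hairpin 1. All 4 control libraries were far above both TARDBP hairpin libraries (log2FC against the mean of both -3.85, SE 0.206, adjusted p = 8.86e-06, edgeR). The controls were not separated for RTL1 (control hairpin 2 against control hairpin 1 -0.45, adjusted p = 0.0742, edgeR). RTL1 lies opposite an antisense transcript, and the strand setting of the counting is unknown here.

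The other falls were smaller. RTL10 had 13.4 and 12.7 CPM with the TARDBP hairpin, against 25.2 to 28.3 CPM over the 4 control libraries (log2FC -1.01, adjusted p = 1.50e-04, edgeR). MOAP1, a PNMA family member whose protein binds the cell death effector BAX, had 14.1 and 14.4 CPM, against 19.2 to 39.2 CPM (log2FC -0.90, adjusted p = 0.00161, edgeR). RTL8A (log2FC -0.89), RTL8C (-0.62), RTL6, formerly LDOC1L (-0.44), and ZCCHC12, a coactivator in bone morphogenetic protein signalling (-0.68), fell as well. The RTL8 genes are near-identical copies, so their separate counts are uncertain. The call of RTL8C was lost without replicate 2 of the TARDBP hairpin, and that of ZCCHC12 without any 1 of the libraries other than replicate 1 of the TARDBP hairpin. RTL5 rose (log2FC 0.76, SE 0.0767, adjusted p = 1.25e-04, edgeR). It had 83.1 and 91.3 CPM with the TARDBP hairpin, 42.1 and 42.0 CPM with control hairpin 2, and 64.2 and 61.8 CPM with control hairpin 1. With the 4 control libraries pooled as 1 group, RTL5 lost its call (adjusted p = 0.0664, edgeR). So did MOAP1 (0.0788), RTL8C (0.0936) and ZCCHC12 (0.167).

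With each control alone, the same list gave 7 genes that fell and 1 that rose against control hairpin 2, and 9 and 1 against control hairpin 1. Of everything tested, 26.2% fell and 24.0% rose against control hairpin 2, and 21.8% and 21.1% against control hairpin 1. The count of 9 dropped to 4 without replicate 2 of the TARDBP hairpin or without replicate 1 of control hairpin 1. Between control hairpin 2 and control hairpin 1 the only rise was MOAP1 (log2FC 0.69, adjusted p = 0.0104, edgeR), lost without replicate 1 of control hairpin 2 or replicate 2 of control hairpin 1. PNMA8A (-0.82), PNMA8B (-0.62) and RTL5 (-0.58) were lower with control hairpin 2, where 20.4% of everything tested was lower and 22.8% higher. The call of PNMA8B there was lost when any 1 of the 4 control libraries was left out.

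**Figure D3:**
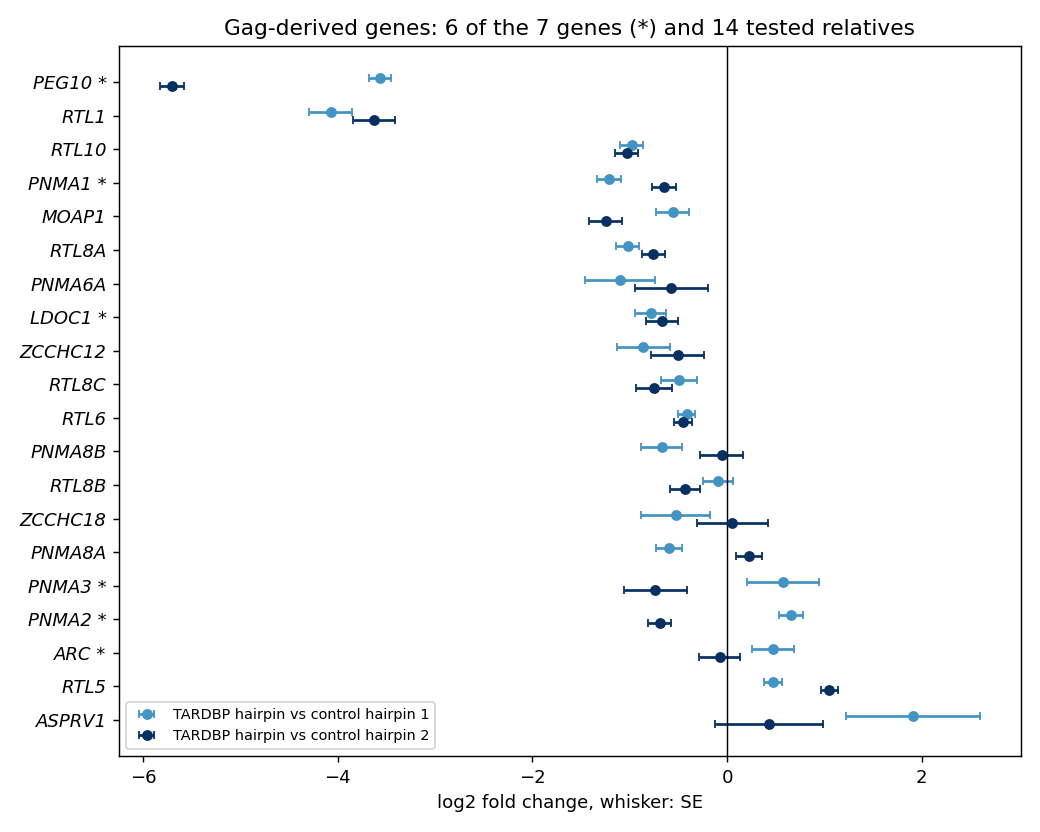
log2FC of 6 of the 7 genes (asterisk, SGCE left out) and 14 tested gag-derived relatives with the TARDBP hairpin against each control, whiskers showing SE, ordered by the average of the pair. PEG10 and RTL1 lie lowest against both controls. RTL5 and ASPRV1 lie above 0 against both. ASPRV1, a retroviral-like protease gene and not gag-derived, had no more than 0.831 CPM in any library.

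The neighbourhood of PEG10 on chromosome 7 was compared gene by gene, using 14 neighbours of which 9 were tested. Against the mean of both controls 5 of the 9 fell and 0 rose, where 24.3% of everything tested fell and 23.9% rose, and the median log2FC was -0.30. With the 4 control libraries pooled as 1 group 3 fell, without CASD1 (adjusted p = 0.305, edgeR) and DYNC1I1 (adjusted p = 0.109). Against control hairpin 2, 3 fell and 2 rose (median -0.19), where 26.2% of everything tested fell and 24.0% rose. Against control hairpin 1, 7 fell and 0 rose (median -0.85), where 21.8% of everything tested fell and 21.1% rose. Of these, the rise of BET1 was lost with median-ratio scaling and the fall of PPP1R9A with upper quartile scaling. TFPI2, a protease inhibitor gene that is imprinted in placenta, had 35.2 and 32.1 CPM with the TARDBP hairpin, 366 and 427 CPM with control hairpin 2, and 106 and 144 CPM with control hairpin 1. Its order over the hairpins was that of PEG10, with a rise between control hairpin 2 and control hairpin 1 as well (log2FC 1.66, adjusted p = 1.26e-04, edgeR). GNG11, which encodes a G protein gamma subunit, had 29.3 and 30.5 CPM with the TARDBP hairpin, 146 and 164 CPM with control hairpin 2, and 177 and 185 CPM with control hairpin 1. It fell by 2.48 against the mean of both on the log2 scale (adjusted p = 3.48e-06, edgeR), with no call between the controls (log2FC -0.22, adjusted p = 0.0788).

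COL1A2, a collagen gene among those that fell, was almost uncounted with the TARDBP hairpin (0.103 and 0.156 CPM). It had 3.72 ± 0.397 CPM with control hairpin 2 and 1.26 ± 0.776 CPM with control hairpin 1. The counts with the TARDBP hairpin are too few for the size of its fall to be read. CASD1 lies on the other side of SGCE and encodes a sialic acid acetyltransferase. Its log2FC was -0.09 (SE 0.113) against control hairpin 2 and -0.50 (SE 0.113) against control hairpin 1. Between control hairpin 2 and control hairpin 1 it was -0.41 (SE 0.112). Against the mean of both controls CASD1 gave -0.30 (adjusted p = 0.0365, edgeR). Its call was lost without either TARDBP hairpin library or without replicate 1 of either control. The call of DYNC1I1, a dynein subunit gene (log2FC -0.64, adjusted p = 0.0122), was lost without either TARDBP hairpin library, and leaving out replicate 2 of that hairpin left 3 falls. PPP1R9A, next to PEG10 on the far side from SGCE, gave -0.30 (adjusted p = 0.0815). The genes that flank the pair thus had smaller changes than PEG10, a difference that was not tested. PDK4, a kinase gene of pyruvate metabolism, rose against control hairpin 2 (log2FC 0.96) and fell against control hairpin 1 (-1.34), and the rise was lost without any 1 of the 4 libraries compared.

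**Figure D4:**
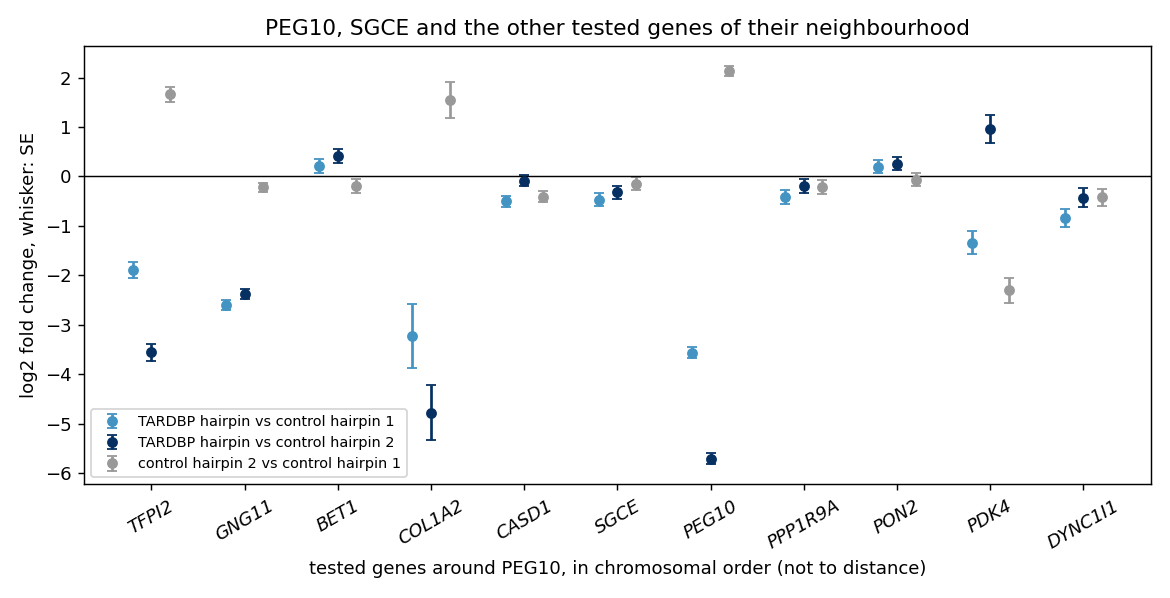
log2FC of PEG10, SGCE and the 9 tested neighbours in chromosomal order (spacing not to scale) for the 3 pairwise comparisons, whiskers showing SE. TFPI2, GNG11, COL1A2 and PEG10 lie well below 0 against both controls, while CASD1, SGCE and PPP1R9A lie between -0.50 and -0.09 there. For COL1A2 the counts with the TARDBP hairpin are too few for the size to be read.

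SGCE belongs to the complex that links the cytoskeleton to the matrix through dystroglycan and dystrophin. Of 14 other genes of the complex, 11 were tested, and 3 rose and 3 fell against the mean of both controls, near the shares over everything tested (23.9% rose and 24.3% fell). UTRN (log2FC -0.97) and DAG1 (-0.52), which encode utrophin and dystroglycan, were among those that fell. SSPN (1.86), encoding sarcospan, SNTB2 (0.44) and SGCD (0.88) rose. SSPN differed between the controls, with 16.0 and 17.7 CPM with the TARDBP hairpin, 10.8 and 11.8 CPM with control hairpin 2, and 0.969 and 2.84 CPM with control hairpin 1. Pooling the controls left 1 rise and 1 fall in the list, and the call of SGCD was lost without replicate 2 of the TARDBP hairpin, either library of control hairpin 1 or replicate 2 of control hairpin 2. The median log2FC was -0.07.

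Several genes are known to set the level of PEG10 RNA or protein, and 9 of them were tested. E2F1, a cell-cycle transcription factor gene reported to activate the PEG10 promoter, had 3.47 ± 1.24 CPM with the TARDBP hairpin, 27.4 ± 4.92 CPM with control hairpin 2, and 12.8 ± 2.46 CPM with control hairpin 1, with no overlap. This was the same order as for PEG10 (log2FC against the mean of both -2.43, adjusted p = 1.08e-04, and 1.10 for control hairpin 2 against control hairpin 1, adjusted p = 0.00473, edgeR). TFPI2 above and the cell-cycle genes below had that order too, and the part of E2F1 in the PEG10 values was not tested. UBQLN4 (-1.14), E2F4 (-0.59) and UBQLN1 (-0.31) also fell, and USP9X (0.48) and UBE3A (0.32) rose. UBE3A had 113 and 101 CPM with the TARDBP hairpin, 62.2 and 66.1 CPM with control hairpin 2, and 116 and 114 CPM with control hairpin 1, so it was above control hairpin 2 alone (log2FC against control hairpin 1 -0.10, adjusted p = 0.409, edgeR). Against the mean of both, 4 of the 9 fell and 2 rose, where 24.3% of everything tested fell and 23.9% rose. With the controls pooled 3 fell and 0 rose, where 2572 of 17163 genes and subfamilies were called in either direction. The call of UBQLN1 was lost without replicate 2 of the TARDBP hairpin, and that of UBE3A without replicate 1. UBQLN2, the ubiquilin that clears PEG10 protein and is mutated in familial amyotrophic lateral sclerosis, had 37.6 and 32.8 CPM with the TARDBP hairpin, 40.8 and 48.9 CPM with control hairpin 2, and 41.3 and 37.5 CPM with control hairpin 1 (log2FC -0.26, adjusted p = 0.0854, edgeR).

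MYC, a growth transcription factor gene also reported to raise PEG10, separated the controls most within that list. It had 9.36 and 6.08 CPM with the TARDBP hairpin, 30.7 and 34.5 CPM with control hairpin 2, and 2.14 and 4.16 CPM with control hairpin 1. Its lowest group was control hairpin 1, not the TARDBP hairpin (log2FC 3.36 for control hairpin 2 against control hairpin 1, adjusted p = 9.78e-05, edgeR). The part of MYC in the PEG10 values was not tested either. Between control hairpin 2 and control hairpin 1, 6 of the 9 were higher and 1 lower, where 22.8% of everything tested was higher. The count of 6 dropped to between 2 and 4 when any 1 library was left out and to 3 with DESeq2, and E2F1 and MYC kept their calls throughout.

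Cell-cycle genes were ordered over the hairpins as PEG10 was. All 10 of a list with MKI67, TOP2A and CDK1 fell against the mean of both controls, where 24.3% of everything tested fell, and 5 did with the controls pooled. Against control hairpin 2 all 10 fell and against control hairpin 1 9 fell, CDK1 being the exception (adjusted p = 0.204, edgeR), with 4.19 and 4.47 CPM with the TARDBP hairpin against 3.98 and 8.47 CPM with control hairpin 1. All 10 were higher with control hairpin 2 than with control hairpin 1, where 22.8% of everything tested was. Their summed level was 33.7 and 28.9 CPM with the TARDBP hairpin, 641 and 702 CPM with control hairpin 2, and 129 and 212 CPM with control hairpin 1. In bulk RNA, fewer cycling cells and less RNA per cell cannot be told apart. The part of this difference in the PEG10 values was not tested.

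The profile of PEG10 over the 6 libraries was compared with those of 10022 genes, each centred on its own mean of log2 CPM. The 5 nearest, by root mean square difference, were ELN (0.414), TOP2A (0.427), PRR11 (0.574), KNL1 (0.584) and NEFM (0.588). ELN encodes elastin, TOP2A a topoisomerase of dividing cells, KNL1 a kinetochore protein and NEFM a neurofilament protein. ELN averaged 4.17 CPM with the TARDBP hairpin, 118 CPM with control hairpin 2 and 30.4 CPM with control hairpin 1. SGCE had TUFT1, ZNF473 and OTUD7B as its nearest genes (0.0491 to 0.0544). PNMA1 was nearest to WDTC1, KIF3C and KLHDC8B (0.0452 to 0.0751), and PNMA2 to DKK3, SCG5 and TNS1 (0.0611 to 0.0820). PNMA3 was nearest to SDK2, TGFBR2 and PNMA2 (0.172 to 0.207), the last of which is itself among the 7 genes. LDOC1 was nearest to PQLC1, SOX12 and CCAR2 (0.0279 to 0.0507), and ARC to NDUFB7, TALAM1 and RPL13A (0.0624 to 0.0748). A difference near 0 can arise for genes that vary little, so these values are not to be set against those of PEG10.

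ARC is one of the immediate early genes that neuronal activity induces, and 13 other genes were tested, 11 of that class together with SRF and MEF2D, transcription factors that act upstream of such genes. Against the mean of both controls 4 fell, where 24.3% of everything tested did, namely MEF2D (log2FC -0.91), NR4A1 (-0.73), SRF (-0.61) and EGR2 (-2.08), and JUNB rose (0.57). EGR2 was below 0.2 CPM in both TARDBP hairpin libraries, and its call was lost without either of them or without replicate 2 of control hairpin 1. The call of JUNB was lost without replicate 1 of each hairpin in turn. Against control hairpin 2, 10 of the 13 fell and 0 rose, where 26.2% of everything tested fell, a count that was 5 without replicate 2 of the TARDBP hairpin and 6 without replicate 1 of control hairpin 2. Against control hairpin 1, 4 fell and 3 rose, where 21.8% of everything tested fell and 21.1% rose. Between control hairpin 2 and control hairpin 1, 8 were higher and 2 lower, where 22.8% of everything tested was higher, with 4 higher without replicate 1 of control hairpin 1 and 5 without replicate 2 of control hairpin 2. Summed over the list, the level was 254 and 233 CPM with the TARDBP hairpin, 329 and 333 CPM with control hairpin 2, and 222 and 252 CPM with control hairpin 1.

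Other antigens of paraneoplastic disease, which are unrelated to the PNMA genes in sequence, were lower in most cases. Of 13 tested, 8 fell and 2 rose against the mean of both controls, where 24.3% of everything tested fell and 23.9% rose, and the median log2FC was -0.81. With the controls pooled 6 fell and 0 rose. DPYSL5, a neuronal growth cone gene, had 21.4 and 16.4 CPM with the TARDBP hairpin, 112 and 120 CPM with control hairpin 2, and 144 and 140 CPM with control hairpin 1 (log2FC -2.77, adjusted p = 4.39e-06, edgeR). DNER (log2FC -2.18), the neuronal RNA-binding protein genes ELAVL3 (-2.16), ELAVL4 (-0.95) and NOVA2 (-1.10), and CDR2L (-1.48) also fell. The rises were ZIC4 (0.91), lost without replicate 2 of the TARDBP hairpin, and KLHL11 (0.25), lost without any 1 library other than replicate 2 of the TARDBP hairpin.

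The retrotransposons nearest in kind to the ancestors of these genes are the Gypsy elements, counted as 19 subfamilies. All 19 were tested, and 17 rose and 0 fell against the mean of both controls, with a median log2FC of 0.56. Their summed level was 347 and 344 CPM with the TARDBP hairpin, 230 and 213 CPM with control hairpin 2, and 268 and 265 CPM with control hairpin 1. The rise was shared with other repeats, since 407 of 961 subfamilies rose (42.4%) and 2 fell, with a median of 0.25. MamGypLTR2c gave 0.75 (adjusted p = 5.88e-04, edgeR), LTR88a 0.76, LTR81A 0.58 and MamGypLTR1a 0.72.

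Against control hairpin 2, 17 of the 19 Gypsy subfamilies rose, where 60.4% of all 961 subfamilies did, and 10 without replicate 2 of that control. Against control hairpin 1, 11 rose, where 16.3% of all subfamilies did, and between 3 and 5 when any 1 library of the TARDBP hairpin or of control hairpin 1 was left out. Between control hairpin 2 and control hairpin 1, 6 were lower and 0 higher, where 337 of all 961 subfamilies were lower and 8 higher, and between 1 and 3 were lower when any 1 control library was left out. With DESeq2 these counts were 15, 4 and 3. The assignment of reads that match many copies is unknown here.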

How the data were processed

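Per the labels' protocols, Trizol RNA was depleted of ribosomal RNA (Ribo-Zero Gold) and made into strand-specific libraries (NEBNext Ultra II Directional). Per the submitters' processing notes, the authors' tools were bcl2fastq and STAR 2.5.2b, on hg19. The deposited values are raw counts per gene symbol and repeat subfamily. The counting tool, annotation and strand setting are unknown here.

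All 6 libraries were fitted with edgeR 4.0.16 in R 4.3.3, as 3 groups, with TMM scaling and filterByExpr (minimum count 10, minimum total 15). Quasi-likelihood p-values were Benjamini-Hochberg adjusted over everything tested (17163 genes and subfamilies). Calls are those under 0.05. SE is the absolute log2FC over the square root of F. CPM uses TMM. Code was tested on simulated data. Alternatives were median-ratio and upper quartile scaling, no filter, DESeq2 1.42.0, genes alone, the replicate block, pooled controls and leaving out each library. Named genes are all called members of lists with up to 5 calls, otherwise up to 6 with the lowest p, plus genes whose role the text discusses, and the nearest profiles among genes averaging 3 or more on the log2 CPM scale. The genes and lists were chosen with earlier results of these data known. Results for some listed genes are not reported here.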

Additional observations from a re-analysis of the deposited data

How the results depend on the processing

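The number of the 7 genes called and the change of PEG10 stayed on the same side of the threshold in all 98 alternative values, with a count within 1.5 times. Leaving out each library in turn gave PEG10 log2FC of -4.68 to -4.60 against the mean of both controls, -5.77 to -5.67 against control hairpin 2, -3.65 to -3.49 against control hairpin 1, and 2.05 to 2.22 between the controls, and 3 to 4, 3 to 5, 4 to 5 and 3 to 5 called genes. Of the values for single genes, 313 kept sign and side of the threshold, 12 lost a call, 5 gained one and 13 changed sign, all 13 of changes that were not called. The gains, each without 1 library, were SGCE against control hairpin 2 (without either library of control hairpin 1), ARC against control hairpin 1 (0.73, without replicate 2 of the TARDBP hairpin) and ARC between the controls (without either TARDBP hairpin library). Upper quartile scaling, which moved the median of everything tested from 0.04 to 0.17, turned PNMA2 to 0.108 and PNMA3 to 0.041 against the mean of both and ARC to 0.072 against control hairpin 2. Genes alone gave PNMA2 0.013. Leaving out a library gave -0.118 to 0.056 for PNMA2, -0.319 to 0.119 for PNMA3 and -0.13 to 0.46 for ARC against the mean of both, -0.40 to 0.19 for ARC against control hairpin 2, and -0.320 to 0.041 for SGCE between the controls. SGCE lost its call against the mean of both and against control hairpin 1 under upper quartile scaling, and against the mean of both with pooled controls (-0.40). Against the mean of both, the fit with pooled controls gave PEG10 -5.00 (SE 0.922), where the main fit gave -4.64 (SE 0.111). The SE of PNMA1 was 0.241 with pooled controls and 0.111 in the main fit, and that of LDOC1 0.175 and 0.145. Pooling the controls as 1 group left 2572 calls in place of 8269, 4 falls among the gag-derived relatives in place of 7, and 4 rises among the Gypsy subfamilies in place of 17. The cause was not tested.

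The replicate numbers showed no pairing of the same sign over all hairpins. Same-numbered deviations correlated at -0.23 and -0.25 between the TARDBP hairpin and control hairpins 1 and 2, and at 0.23 between the controls. A pairing with the numbers of a hairpin reversed was not tested. With the replicate number as a block, PEG10 gave -4.64, and 7643 genes and subfamilies were called in place of 8269.

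With 16 to 58 counts a library, PNMA3 is limited by depth, so the lack of a call says little about it.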
